A study of Mus musculus with 8 samples.

Results

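The genes described here are the semaphorins, plexins, neuropilins, Eph receptors and ephrins of the mouse cortex. They were taken from a table of read counts per gene by name, as every protein-coding row whose symbol begins with Sema3 to Sema7, Plxna to Plxnd, Epha, Ephb, Efna or Efnb followed by its number, or is Nrp1 or Nrp2. This gave 53 genes of 54532 rows, of which 22046 were protein-coding. The libraries were bulk RNA-seq of cortex from 8 mice on the C57BL/6 background at 8 months of age, with 1 library per mouse. All 8 mice carried PS19, a transgene that expresses human tau with the P301S mutation from the mouse prion promoter. The 4 control mice carried PS19 alone (m677, m668, m665 and m659). The other 4 mice, Adrb1+/m;PS19 (m671, m661, m660 and m658), carried in addition 1 copy of a knock-in allele of the β1-adrenergic receptor gene with the A187V mutation, made by CRISPR. Per the labels the animals were singly housed, and per the study's methods they were males with littermates as controls. The comparison asked which transcripts differed when the mutant receptor was added to the tau model, and no mouse without the transgene was sequenced among these libraries.

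Semaphorins are secreted or membrane-bound ligands that steer growing axons and dendrites, mostly by repulsion. Most bind plexins directly, whereas most secreted class 3 semaphorins need a neuropilin as the ligand-binding co-receptor of an A plexin. Eph receptors are receptor tyrosine kinases whose ligands, the ephrins, sit on the membrane of a neighboring cell. Ephrin-A ligands are held there by a lipid anchor and ephrin-B ligands span the membrane, so that both partners of a contact can signal. In the adult cortex the same proteins are known from dendritic spines, synapses, glia and blood vessels.

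Library totals ranged from 14653222 to 21223754 counts. Levels are given as CPM, the counts of a gene relative to the size of its library, scaled by the trimmed mean of M values (TMM), whose factors lay between 0.990 and 1.01. Adrb1 itself was counted at 36.8 ± 4.19 CPM in PS19 and 35.0 ± 3.71 CPM in Adrb1+/m;PS19 mice (SD, n = 4 each), which does not check the genotype because a missense allele is counted like the normal one. Excitatory neuron markers of cortex (Slc17a7, Tbr1 and Cux2) were present in all 8 libraries. Summed markers of the choroid plexus ranged from 24.4 to 579.1 CPM and those of the striatum from 682.5 to 1607.8 CPM over the 8 mice.

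Promoter sequence from RefSeq (GRCm38.p6, the 250 bases before the start of transcription) was matched by symbol for 47 of the 53 genes. The windows of 3 genes are shown because they belong to the gene with the highest level per length (Sema7a), the gene with the smallest p value in the genotype comparison (Ephb2) and the gene that was too low to be tested (Efna4). Each is written 5′ to 3′ on the strand of its gene, and capitals mark the GC box, searched as GGGCGG and as CCGCCC for the other strand. The Sema7a window lies at chr9:57939862-57940111 on the plus strand, the Ephb2 window at chr4:136836013-136836262 on the minus strand, and the Efna4 window at chr3:89338029-89338278 on the minus strand.
Sema7a: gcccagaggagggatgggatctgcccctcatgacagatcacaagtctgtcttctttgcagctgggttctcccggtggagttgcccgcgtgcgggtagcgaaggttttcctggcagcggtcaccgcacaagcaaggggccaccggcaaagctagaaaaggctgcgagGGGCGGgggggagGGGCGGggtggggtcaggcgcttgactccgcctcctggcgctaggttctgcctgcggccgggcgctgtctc
Ephb2: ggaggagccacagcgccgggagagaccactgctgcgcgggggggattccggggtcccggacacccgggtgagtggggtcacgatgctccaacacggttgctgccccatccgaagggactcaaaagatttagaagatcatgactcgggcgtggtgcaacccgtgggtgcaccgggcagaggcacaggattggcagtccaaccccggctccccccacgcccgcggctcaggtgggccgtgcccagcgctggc
Efna4: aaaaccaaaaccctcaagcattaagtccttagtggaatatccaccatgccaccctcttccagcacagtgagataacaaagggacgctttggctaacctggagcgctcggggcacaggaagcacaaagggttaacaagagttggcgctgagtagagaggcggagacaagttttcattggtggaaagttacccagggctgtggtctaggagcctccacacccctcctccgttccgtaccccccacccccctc
The Sema7a window held 66.4% G and C, 17 CpG and 2 GC boxes. The Ephb2 window held 68.4% G and C, 20 CpG and no match to the GC box letters. The Efna4 window held 54.4% G and C, 7 CpG and no match. Over the 47 windows the median share of G and C was 64.4%, beside 56.0% over 16497 protein-coding genes with 1 start each. A ratio of observed to expected CpG above 0.6 together with more than 50% G and C was found in 27 of the 47 windows (57.4%), beside 43.0% of the protein-coding windows. A GC box was found in 36 of the 47 (76.6%), beside 44.2%. For the 47 genes the listed start nearest that of the deposited table was used, and for the protein-coding windows the first start listed. The shares compared thus rest on unlike choices of start. The start used lay within 1000 bases of the start in the deposited table for 44 of the 47 genes.

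The levels of the 53 genes were compared per length, as CPM per kilobase of the gene length given in the deposited table. That length joins all annotated exons, so a gene with long untranslated or alternative exons is placed lower than its transcript would be. The median over 8 mice spanned 0.148 (Epha1) to 58.8 CPM per kilobase (Sema7a). Sema7a (ENSMUSG00000038264, chr9 57940112 to 57962865, plus strand, GRCm38), a lipid-anchored semaphorin known to bind Plxnc1 and integrins, was first in all 8 mice, with no overlap with the next gene. Efnb3, an ephrin-B ligand, followed at 38.4, Ephb6, an Eph receptor whose kinase domain is inactive, at 35.1, and Sema6b at 34.4 CPM per kilobase. The ranges of Efnb3, Ephb6 and Sema6b over the mice overlapped, so their order is not resolved. Epha4, an EphA receptor that binds ephrins of both classes, came next at 23.6 and Plxnd1, the plexin that binds Sema3e without a neuropilin, at 20.1 CPM per kilobase. Of the 52 steps between neighbors in this order, 48 had overlapping ranges. Compared within each mouse, Epha4 was above Plxnd1, Plxna1 above Plxna2 and Ephb2 above Epha3 in all 8 mice although their ranges overlapped. The 4 steps without overlap were Sema7a above Efnb3, Sema6b above Epha4, Efna3 above Plxnb1, and Sema3d above Epha2.

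The share of the summed level held by the highest gene per length differed between families and was smallest in the plexins. Sema7a made up 32.9 to 39.5% of the summed level per length of the 20 semaphorins in each mouse. Efnb3 made up 43.4 to 51.4% of the 8 ephrins, Ephb6 30.8 to 37.7% of the 14 Eph receptors, and Plxnd1 18.9 to 24.4% of the 9 plexins. The secreted class 3 semaphorins were low, with medians from 0.930 to 4.63 CPM per kilobase and Sema3e the highest. The 13 membrane semaphorins together were 8.38 to 10.5 times the 7 class 3 semaphorins in every mouse. Ephrin-B ligands exceeded ephrin-A ligands 1.67 to 2.07 times, while the sum of EphA receptors was 0.957 to 1.24 times that of EphB receptors. The A plexins together were 1.11 to 1.47 times the B plexins. Both neuropilins were low, with Nrp2 at 3.85 and Nrp1 at 2.22 CPM per kilobase. The lowest genes were Epha2 (0.241), Efna4 (0.161) and Epha1 (0.148 CPM per kilobase). The sums of the semaphorins, plexins, Eph receptors and ephrins differed between genotypes by less than the SD within a genotype. The semaphorins summed to 174.0 ± 8.28 CPM per kilobase in PS19 and 171.5 ± 9.66 in Adrb1+/m;PS19 mice, and the Eph receptors to 105.8 ± 7.85 and 101.2 ± 5.92 (SD, n = 4 each). Of the smaller groupings, the 4 A plexins summed to 35.1 ± 0.821 and 33.3 ± 1.69 CPM per kilobase, a difference that was larger than either SD and was not tested.

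**Figure D1:**
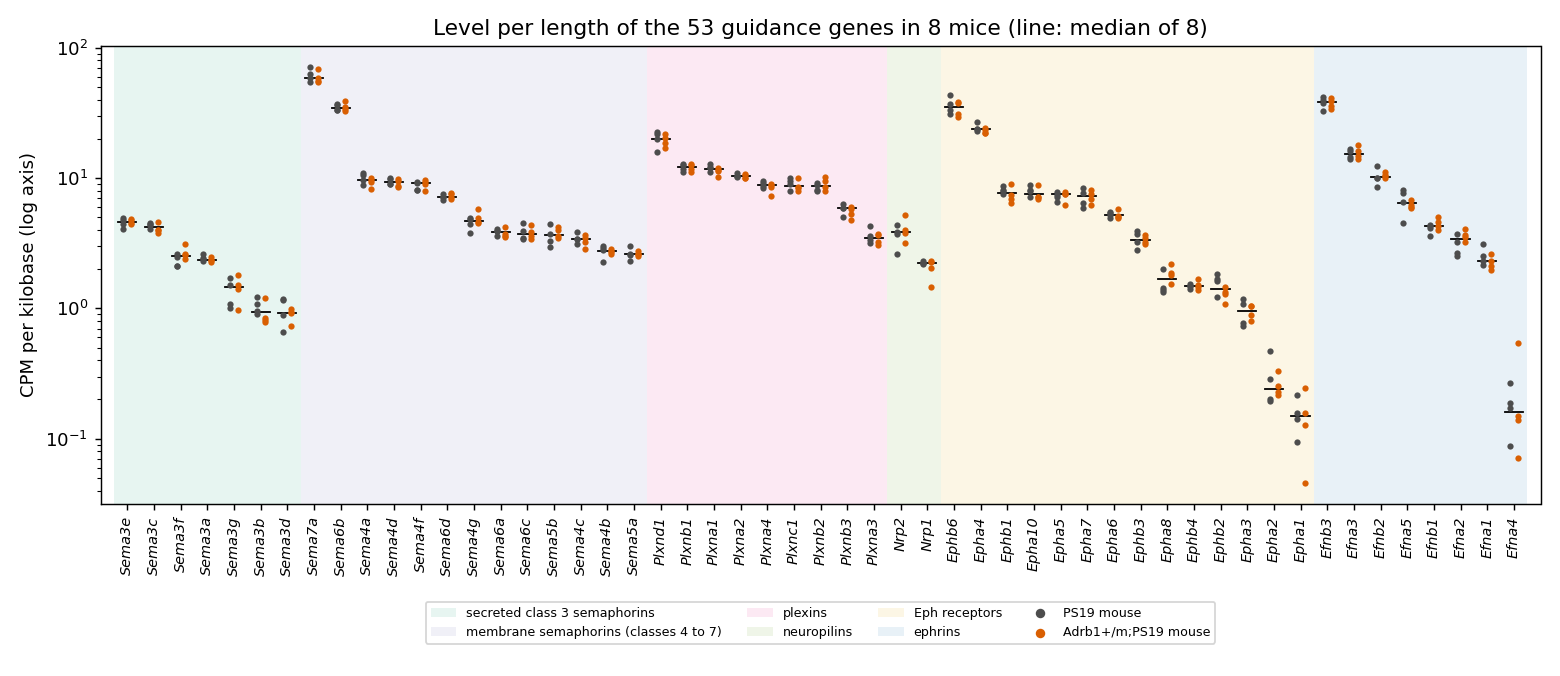
Level per length of the 53 guidance genes, as CPM per kilobase on a log axis, with 1 point per mouse (gray, PS19; orange, Adrb1+/m;PS19), a line at the median of 8 mice and shading by role. The medians of Sema7a, Efnb3, Ephb6 and Sema6b lie above 30 CPM per kilobase, and the points of the 2 genotypes overlap for all genes.

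The receptor gene Ephb2 was lower in the Adrb1+/m;PS19 mice at the unadjusted threshold of the study, and no other guidance gene passed it. Of the 53 genes, 52 passed the filter on low counts, and 1 of these 52 (1.92%) had an unadjusted p under 0.05 in edgeR's quasi-likelihood test, the threshold of the study, beside 2.8% of the 17195 genes tested. Of all genes, 1.37% were called lower. No guidance gene was called higher, beside 1.42% of all genes. No guidance gene had genotypes that did not overlap, beside 2.02% of all genes. None passed the Benjamini-Hochberg adjustment over all genes (smallest adjusted p 0.9996 in edgeR), as was the case for every gene of the table. The log2 fold changes (Adrb1+/m;PS19 over PS19) ran from -0.30 to 0.27 with a median of -0.02, against a median of 0.00 over all genes, and 31 of the 52 were below 0, beside 49.8% of all genes. In bulk cortex a lower level cannot be told apart between fewer cells of a type and less RNA per cell.

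The intervals were narrow for most of these genes. The 95% interval of the fold change lay within 1.25-fold in either direction for 35 of the 52 genes and within 1.5-fold for 49. The 3 genes whose intervals reached beyond 1.5-fold were Epha8, Epha2 and Epha1, and for Epha1, with a level of 0.180 to 0.958 CPM, the interval reached beyond 2-fold. Efna4, an ephrin-A ligand, was not tested, with 7, 4, 3 and 5 counts in the PS19 mice and 4, 18, 4 and 2 counts in the Adrb1+/m;PS19 mice.

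**Figure D2:**
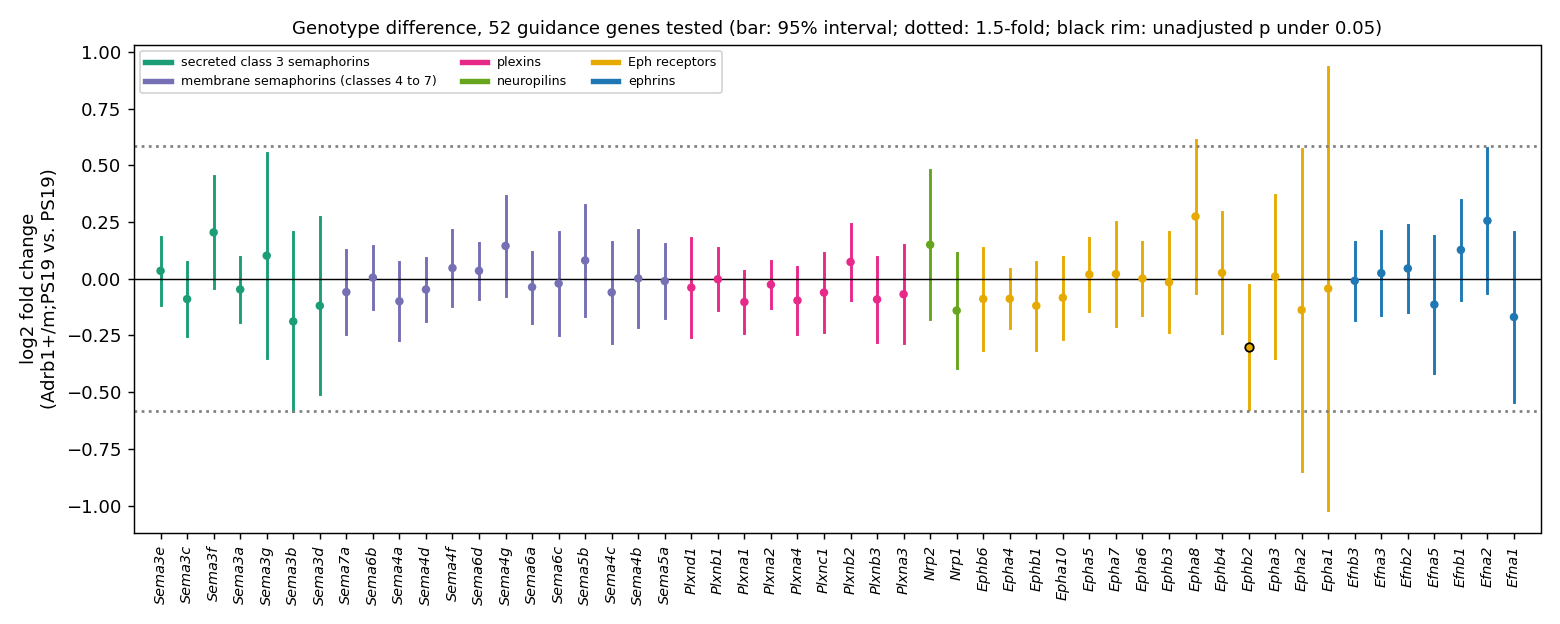
Log2 fold change (Adrb1+/m;PS19 against PS19) of the 52 guidance genes tested, ordered and colored by role, with bars for the 95% interval, dotted lines at 1.5-fold and a black rim for an unadjusted p under 0.05. The interval of Ephb2 alone, -0.57 to -0.03, lies to one side of 0.

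Among the 7 secreted class 3 semaphorins, 4 fold changes were below 0 and 3 above, with a median of -0.05 on the log2 scale. Sema3f, the ligand of Nrp2, had the smallest p of the class. It was at 12.8, 11.0, 13.6 and 11.0 CPM in the PS19 mice and at 12.4, 16.3, 13.4 and 13.6 CPM in the Adrb1+/m;PS19 mice. The genotypes overlapped, with m661 above all others, and the log2 fold change was 0.20 (SE 0.11, p = 0.0974, edgeR, adjusted p 0.9996, exact permutation p 0.171). Sema3e, which was the highest of the class and acts through Plxnd1, was at 42.1 ± 3.42 and 43.2 ± 1.76 CPM (SD, n = 4 each), a log2 fold change of 0.03 (SE 0.07).

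Among the 13 membrane semaphorins, 7 were below 0 and 6 above, and all fold changes lay between -0.10 and 0.14 on the log2 scale. Sema7a was at 180.8, 206.0, 235.9 and 194.8 CPM in the PS19 mice and at 227.9, 193.3, 182.7 and 181.2 CPM in the Adrb1+/m;PS19 mice. A mouse of each genotype, m665 and m671, stood above the other 6, and the log2 fold change was -0.06 (SE 0.09). Sema4g had the smallest p of the class, with a log2 fold change of 0.14 (SE 0.10, p = 0.185, edgeR, adjusted p 0.9996, exact permutation p 0.314).

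Of the 9 plexins, 8 had a fold change below 0 and 1, Plxnb2, above, but none had p under 0.05 and the median was -0.06 on the log2 scale. Plxna1, a receptor for class 3 and class 6 semaphorins, had the smallest p of the family. It was at 101.3, 109.1, 110.3 and 116.6 CPM in the PS19 mice and at 104.2, 108.3, 91.6 and 102.9 CPM in the Adrb1+/m;PS19 mice. All PS19 values but that of m677 were above all of the Adrb1+/m;PS19 values, for a log2 fold change of -0.10 (SE 0.06, p = 0.127, edgeR, adjusted p 0.9996, exact permutation p 0.200). Plxnd1, the highest plexin per length, was at 146.1 ± 21.9 and 142.1 ± 15.4 CPM (SD, n = 4 each).

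The neuropilins, the co-receptors of class 3 semaphorins, were uneven between mice. Nrp1 was at 21.7, 21.5, 21.7 and 22.6 CPM in the PS19 mice and at 14.4, 22.3, 20.1 and 22.4 CPM in the Adrb1+/m;PS19 mice. The difference rested on m671, and the log2 fold change was -0.14 (SE 0.12, p = 0.256, edgeR, adjusted p 0.9996, exact permutation p 0.371) and -0.02 without that mouse. Nrp2 was at 44.2, 46.0, 30.8 and 51.6 CPM against 37.4, 45.2, 46.9 and 61.3 CPM, with the lowest value in m665 and the highest in m658. Its log2 fold change was 0.15 (SE 0.15), and it was 0.014 without m665 and 0.0061 without m658.

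Of the 14 Eph receptors, 8 were below 0 and 6 above, with a median of -0.03 on the log2 scale. Ephb2 (ENSMUSG00000028664, chr4 136647539 to 136835988, minus strand, GRCm38) is a receptor of ephrin-B ligands that is known to gather NMDA receptors at excitatory synapses. Its promoter window is printed above. It was at 21.1, 15.3, 23.1 and 20.4 CPM in the PS19 mice and at 16.9, 18.5, 16.1 and 13.5 CPM in the Adrb1+/m;PS19 mice, or 19.97 ± 3.31 against 16.3 ± 2.07 (SD, n = 4 each). Of the PS19 mice, 3 were above all 4 Adrb1+/m;PS19 mice, whereas m668 was below all of them but m658. The log2 fold change was -0.30 (SE 0.13, 95% interval -0.57 to -0.03, p = 0.0338, edgeR, adjusted p 0.9996), and an exact permutation test of the 8 values, two-sided, gave p = 0.114. The p stayed under 0.05 in 3 of the 8 fits that left out 1 mouse and was over 0.05 without m677, m665, m659, m660 or m658, with a range of fold changes from -0.40 to -0.22 and of p from 0.00277 to 0.120. The gene was counted 222 to 490 times per library. By level per length it ranked 47 of the 53 genes, at a median of 1.40 CPM per kilobase.

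None of the other EphB receptors had p under 0.05. Ephb6 was at 117.9, 138.9, 164.8 and 125.9 CPM in the PS19 mice and at 143.5, 142.6, 117.7 and 111.2 CPM in the Adrb1+/m;PS19 mice. The values interleaved, and the log2 fold change was -0.09 (SE 0.10). Ephb1 had a log2 fold change of -0.12 (SE 0.09, p = 0.206, edgeR, adjusted p 0.9996, exact permutation p 0.343), Ephb3 of -0.02 (SE 0.10) and Ephb4 of 0.03 (SE 0.12). The intervals of Ephb3 (-0.24 to 0.20) and Ephb4 (-0.24 to 0.29) include part of the range of Ephb2, and the differences between receptors were not tested. Of the EphA receptors, Epha4 had a log2 fold change of -0.09 (SE 0.06, p = 0.164, exact permutation p 0.200) and Epha8 of 0.27 (SE 0.16, p = 0.102, exact permutation p 0.171, edgeR adjusted p 0.9996 for both).

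The ephrin-B ligands, which bind Ephb2, had no p under 0.05. Efnb1 had a log2 fold change of 0.13 (SE 0.10), Efnb2 of 0.04 (SE 0.09) and Efnb3 of -0.01 (SE 0.08), and Efnb3 was at 120.5 ± 12.4 CPM in PS19 and 119.8 ± 10.7 CPM in Adrb1+/m;PS19 mice (SD, n = 4 each). Of the 7 ephrins tested, 3 were below 0 and 4 above. Efna2 had the smallest p. It was at 7.90, 5.66, 6.89 and 5.42 CPM in the PS19 mice and at 7.86, 7.52, 8.68 and 6.90 CPM in the Adrb1+/m;PS19 mice. The genotypes overlapped through m677, and the log2 fold change was 0.26 (SE 0.15, p = 0.109, edgeR, adjusted p 0.9996, exact permutation p 0.171).

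**Figure D3:**
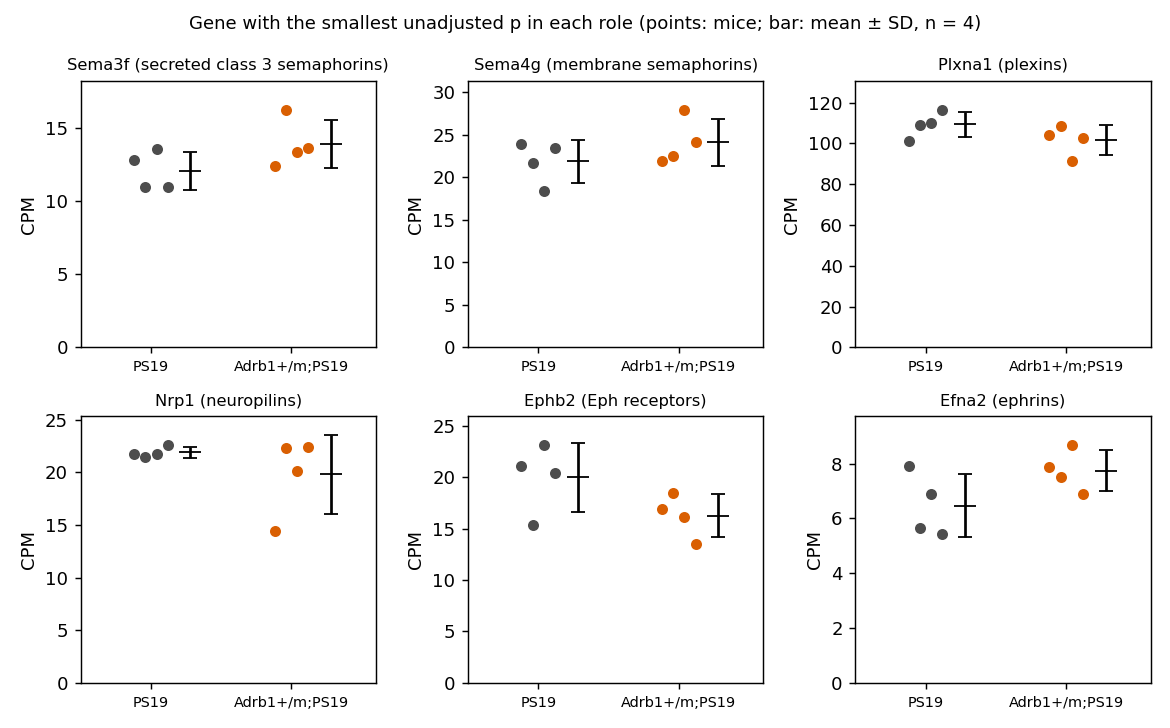
CPM of the gene with the smallest unadjusted p in each of the 6 roles, with 1 point per mouse and bars for the mean ± SD of 4 mice, on axes that start at 0. The genotypes overlap in all 6 panels, and in that of Ephb2 the PS19 mouse m668, at 15.3 CPM, lies among the Adrb1+/m;PS19 mice.

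Some marker genes of cell types and regions differed between genotypes at an unadjusted p under 0.05 in edgeR, beside 2.8% of all genes tested. None passed the adjustment (smallest adjusted p 0.9996 in edgeR). All 6 markers of basal forebrain cholinergic neurons were higher at the unadjusted threshold, and for 1 of them the genotypes did not overlap. Their summed levels were 15.2 to 30.2 CPM in PS19 and 32.0 to 44.5 CPM in Adrb1+/m;PS19 mice. Of the 8 excitatory neuron markers 3 were lower and 1 higher (sums 1500.1 to 1731.8 against 1375.1 to 1564.2 CPM), and of the 6 inhibitory neuron markers 2 were higher and 1 lower (1029.4 to 1083.7 against 1038.7 to 1166.7 CPM). No marker of these lists was at 0 in any library. The marker lists of oligodendrocytes and their precursors, astrocytes, microglia, endothelial cells, pericytes and meningeal fibroblasts, choroid plexus, striatum and thalamus held no gene with p under 0.05. Even so, all 7 striatum markers had a log2 fold change above 0 (0.27 to 0.34). The same held for all 4 choroid plexus markers (0.29 to 0.80) and all 5 thalamus markers (0.08 to 0.30). The sums of these lists overlapped between genotypes. The part of these markers in the lower Ephb2 was not tested.

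Over all 8 mice, the guidance genes between 10 and 200 CPM had a higher median spread than all genes tested in that range. The difference was not tested. The genes compared include the guidance genes and were not matched by level within the range. For the 41 guidance genes between 10 and 200 CPM, the SD of log2 CPM within a genotype had a median of 0.137, beside 0.108 for 9439 genes in the same range. Plxna2 was the steadiest, at 0.0490 and 1.10-fold from the lowest to the highest mouse (171.0 to 188.0 CPM). Nrp2 was the least steady of these 41, at 0.307 and 1.99-fold. Of all 52 genes tested, 38 differed by less than 1.5-fold between the lowest and the highest mouse, and 2, Epha1 and Epha2, by 2-fold or more. Efna5, an ephrin-A ligand, went from 18.2 CPM in m668 to 32.6 CPM in m665, both PS19 mice, a 1.79-fold range.

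The extremes fell unevenly on the mice. The PS19 mouse m668 was the highest of 8 for 13 of the 52 genes and the lowest for 1, whereas m661 was the highest for 3 and the lowest for 9. The PS19 mouse m665 was the highest for 9 genes, Sema7a, Ephb6, Epha4 and Ephb2 among them, and the lowest for 7, Plxnd1, Plxnc1 and Nrp2 among them. The choroid plexus markers summed to 365.8 CPM in m668 and 579.1 CPM in m658, and Sema3b, a class 3 semaphorin, was highest in these same mice at 5.87 and 5.77 CPM against 3.74 to 5.18 CPM in the other 6. The part of choroid plexus tissue in Sema3b was not tested.

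**Figure D4:**
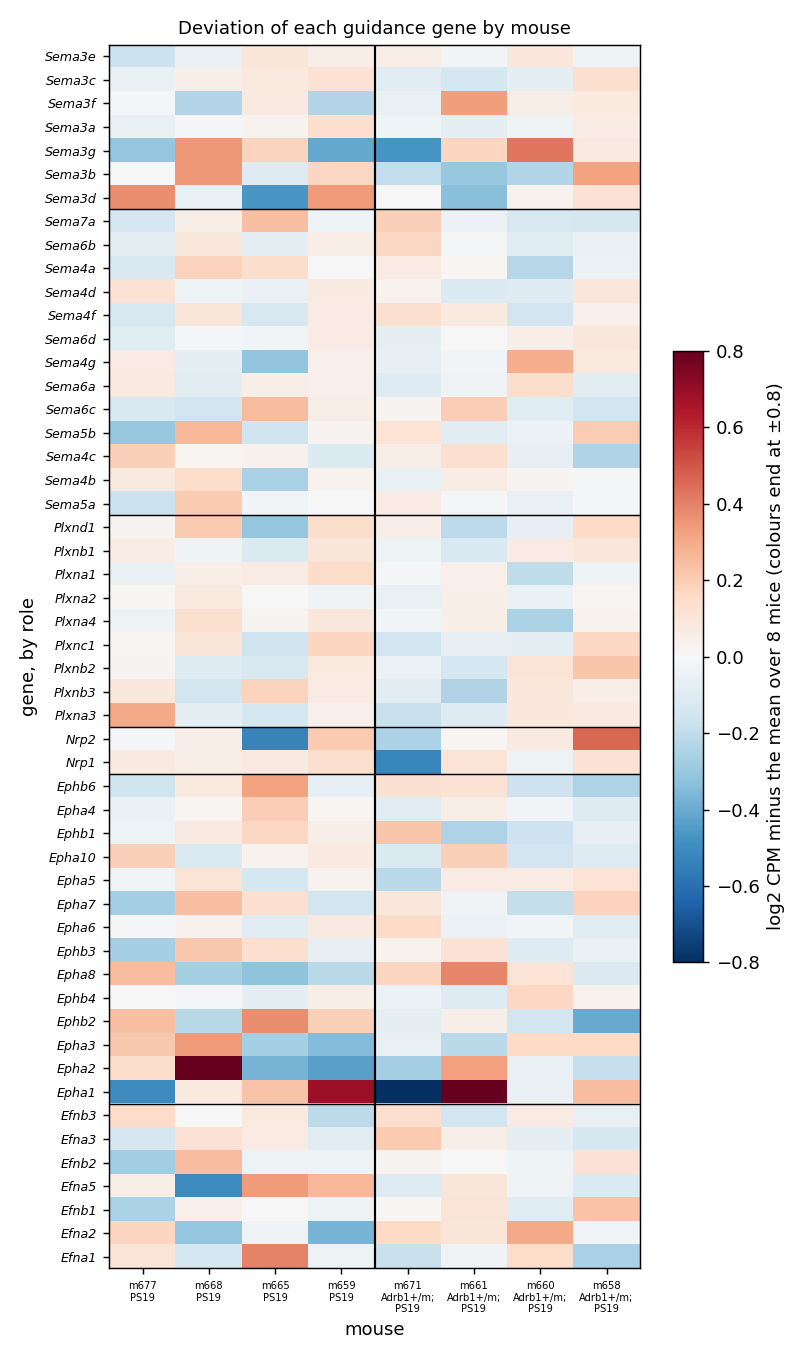
Deviation of each guidance gene tested from its mean over the 8 mice, as log2 CPM, with 1 column per mouse (PS19 left and Adrb1+/m;PS19 right of the vertical line) and horizontal lines between roles. Single mice stand out, such as m671 for Nrp1 and m665 for Nrp2, and the strongest colors belong to the low genes Epha1 and Epha2.

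A further axis of variation crossed the genotypes. The summed microglial markers were 366.0 to 426.4 CPM in m677, m659, m660 and m658, of which 2 were of each genotype, and 248.1 to 307.5 CPM in the other 4 mice. The summed astrocyte markers split the same mice, at 4970 to 5277 against 4254 to 4367 CPM, as did those of oligodendrocyte precursors (254.9 to 267.1 against 219.4 to 244.6 CPM) and of the thalamus (70.2 to 81.0 against 51.9 to 65.5 CPM). The other 8 of the 12 marker lists did not separate these mice. Within the astrocyte list, Gfap was at 748.4 to 837.9 CPM against 181.7 to 353.6 CPM, and Aqp4 and Gja1 separated too. Slc1a2, Slc1a3 and Aldh1l1 overlapped, with Aldh1l1 highest in m661 and m671 of the lower set (68.5 and 65.3 CPM). Within the microglial list, Cx3cr1, Csf1r and C1qa separated, whereas Tmem119, P2ry12 and Aif1 overlapped. The part of these cell types and regions in the values below was not tested. In 10 of the 52 guidance genes (19.2%) the 4 mice with the higher microglial sum did not overlap with the other 4, beside 6.53% of all genes tested. Because these mice were set apart by levels in the same libraries, this is a description and carries no test. The mice with the higher sum were above the others for 6 genes. Plxnb1, the receptor of Sema4d, was at 120.6 to 123.4 CPM against 106.3 to 112.6 CPM, and Plxnb2 at 68.7 to 78.9 against 61.4 to 65.7 CPM. Plxna3, Sema4g, Ephb4 and Sema3d were the other 4. They were below the others for 4 genes, with Ephb6 at 111.2 to 125.9 against 138.9 to 164.8 CPM, Efna3 at 34.2 to 35.7 against 38.9 to 43.5 CPM, and in addition Sema4a and Ephb3.

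Whether a ligand and its receptor moved together over the mice was examined for 12 known pairs. Pearson's r of log2 CPM was positive for 4 pairs and negative for 8, and none had p under 0.05 in the exact permutation test over 8 mice, two-sided, or passed the adjustment over 12 pairs (smallest adjusted p 0.529). The pair with the smallest p was Sema4d and Plxnb1, with r = 0.63 (exact permutation p = 0.0918, adjusted p 0.529) and Spearman's rho = 0.60 (exact permutation p = 0.132, adjusted p 0.560). Without the 2 mice farthest from the median of Sema4d, m677 and m661, r was 0.45. Leaving out 1 mouse at a time gave r from 0.50 to 0.92, the highest without m660 (exact permutation p = 0.00992, adjusted p 0.119). When log2 values were centred within the 4 mice of higher and the 4 of lower microglial sum, r was 0.46, and with 4 mice each these sets are too small for a value of their own. Sema7a and Plxnc1 had r = -0.58 (exact permutation p = 0.132, adjusted p 0.529), which was 0.21 without m665 and m671, the mice farthest from the median of Sema7a, and -0.72 to -0.41 without any 1 mouse. Efnb1 and Ephb2 had r = -0.58 (exact permutation p = 0.130, adjusted p 0.529), which was 0.03 without m677 and m658 and -0.72 to -0.29 without any 1 mouse. Leaving out the mice with the farthest ligand values also narrows the range over which r is taken. Without m671, Sema6a and Plxna2 had r = -0.81 (exact permutation p = 0.0286, adjusted p 0.279), against -0.38 with all mice, and Efna3 and Epha4 had r = 0.71 (exact permutation p = 0.0464, adjusted p 0.279), against 0.24. Without the 2 mice farthest from the median of Efna3, m671 and m668, that pair had r = 0.89 (exact permutation p = 0.00417, adjusted p 0.05). These 2 mice had the highest Efna3 levels and were picked by their values, and the adjustment covers the 12 pairs of this setting alone. With all mice and values centred within the sets of higher and lower microglial sum, r of Efna3 and Epha4 was -0.53.

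Partners that act beside or below these receptors, and the other guidance systems of slits, netrins and repulsive guidance molecules, were taken as a list of 70 genes. Of these 69 were found in the table, 68 passed the filter, and 4 (5.88%) had p under 0.05, beside 2.8% of all genes tested. No adjusted p was under 0.05 in edgeR (0.9996 for all 4). Of the 4, 3 were lower and belonged to the 29 partners of semaphorins and plexins. Gipc1, a scaffold protein that binds the tail of Nrp1, was at 59.3, 60.4, 53.7 and 59.5 CPM in the PS19 mice and at 55.0, 52.8, 48.6 and 49.5 CPM in the Adrb1+/m;PS19 mice. The genotypes overlapped only through m665 and m671, and the log2 fold change was -0.18 (SE 0.06, p = 0.0139, edgeR, adjusted p 0.9996, exact permutation p 0.0571), with p under 0.05 in all 8 fits that left out 1 mouse. Mical2, an oxidoreductase of actin, had a mean of 397.3 ± 25.1 CPM in PS19 and 358.5 ± 29.3 CPM in Adrb1+/m;PS19 mice, and Dpysl4, a collapsin response mediator protein, of 42.4 ± 2.32 and 37.8 ± 3.45 CPM (SD, n = 4 each). Their log2 fold changes were -0.15 (SE 0.06, p = 0.0363, exact permutation p 0.114) and -0.17 (SE 0.07, p = 0.0420, exact permutation p 0.0857, edgeR adjusted p 0.9996 for both). Of the 8 fits that left out 1 mouse, p was under 0.05 in 4 for Mical2 and in 2 for Dpysl4.

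None of the 19 partners of Eph receptors and ephrins had p under 0.05 (smallest p 0.103, edgeR, adjusted p 0.9996). Of the 20 slit, netrin and repulsive guidance genes tested, Ntn1, a secreted attractant, was higher, at 14.8, 16.8, 13.0 and 16.5 CPM in the PS19 mice and 17.7, 21.8, 15.5 and 18.4 CPM in the Adrb1+/m;PS19 mice. Of the Adrb1+/m;PS19 mice, 3 were above all PS19 mice, for a log2 fold change of 0.27 (SE 0.12, p = 0.0384, edgeR, adjusted p 0.9996, exact permutation p 0.114), and p was under 0.05 in 4 of the 8 fits that left out 1 mouse. Of all genes tested, 2.02% had genotypes that did not overlap. Of the 68 partners tested there were 2 such genes, too few to tell from that share. These were Fer, a kinase that acts downstream of plexins, which was higher (15.5 ± 0.956 against 17.7 ± 1.32 CPM), and Slit2, a ligand of Robo receptors, which was lower (40.1 ± 2.83 against 37.1 ± 1.18 CPM, SD, n = 4 each). Any gene without overlap has a two-sided exact permutation p of 0.0286, the smallest that 4 against 4 mice can give. That p therefore restates how Fer and Slit2 were picked and adds no support. For these 2 genes edgeR gave unadjusted p of 0.0501 and 0.124 (adjusted p 0.9996).

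Some counts of these genes could have gained or lost reads through a neighbor, and the direction is not known here. In the GENCODE annotation of the same build, 14 of the 53 genes shared exon bases with another gene, 11 of them with one on the opposite strand, and whether the counting used strand was not given in the sources used here. Among them were Efna4, with 168 bases shared with 4731419I09Rik, Epha1, with 236 bases shared with Zyx, and Plxna1, with 970 bases shared with Gm26811, so their levels are uncertain. Ephb2 and Sema7a shared none.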

How the data were processed

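RNA was extracted from cortex, and 1 paired-end library per mouse was sequenced. Per the study's methods and the submitters' processing notes, the authors aligned reads to GRCm38 (mm10) with HISAT2 2.0.5, counted them per gene with featureCounts 1.5.0-p3 and compared genotypes with DESeq2 1.20.0. The authors deposited 1 table of raw counts per gene for the 8 libraries, with gene length in bases as a further column. The treatment of strand and of multiply mapped reads is not given in the sources used here.

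From the counts, edgeR 4.0.16 (R 4.3.3) was run with filterByExpr, TMM scaling and its quasi-likelihood test, two-sided and without covariates. It was fitted to all 17195 genes that passed, with Benjamini-Hochberg adjustment. Genes were called at an unadjusted p under 0.05, as in the study. Log2 CPM for correlations used a prior count of 2. Alternatives were DESeq2 1.42.0, limma-voom (limma 3.58.1), DESeq2 size factors, other count filters, protein-coding genes alone, 1 surrogate variable (sva 3.50.0) and leaving out each mouse. The scripts were tested on simulated data. Permutation tests were enumerated with numpy 2.4.6, and scipy 1.17.1 gave ranks, t quantiles and the adjustment over pairs. Intervals are 95%.

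Groups came from the labels. Named genes were those with p under 0.05 or without overlap, the highest and the smallest-p gene of each role, genes under the filter, the 12 ligand and receptor pairs, partners with p under 0.05, and Adrb1. Other genes were named after their values were seen. The members and all lists were chosen with earlier results of these data known. The p-values of the genotype comparison set a difference against the spread between these mice, and those of correlations come from permuted pairings. Depth limits the genes of under 1 CPM.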

Additional observations from a re-analysis of the deposited data

Results flagged for a closer look

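A total of 4 values stood far from the other 3 mice of their genotype. With 104 groups of 4 mice examined by Dixon's ratio (the gap to the nearest mouse over the whole range, against its 95% critical value), chance sets apart about 1 group in 20. Epha10 was at 63.6 CPM in m661 against 50.1 to 51.96 CPM in the other Adrb1+/m;PS19 mice, a ratio of 0.862. Epha5, at 104.9 CPM in m671 against 127.2 to 131.4 CPM, had a ratio of 0.840. Epha8, at 9.37 CPM in m677 against 6.33 to 6.81 CPM in the other PS19 mice, had a ratio of 0.842. Sema3b, at 5.77 CPM in m658 against 3.74 to 4.02 CPM, had a ratio of 0.861, and m658 also had the highest choroid plexus sum of the 8 mice (579.1 CPM). Without m661 the log2 fold change of Epha10 was -0.17, and without m677 that of Epha8 was 0.42. Both then had an unadjusted p under 0.05 in edgeR (adjusted p 0.9999 and 0.9998), against 0.337 and 0.102 with all mice. Each mouse left out was picked for a value that lay toward the other genotype. Leaving it out widens the difference and narrows the spread, so these p carry no support.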

How the results depend on the processing

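Ephb2 kept its direction and an unadjusted p under 0.05 in the 7 alternative fits (log2 fold change -0.30 in each, p from 0.00476 to 0.0362), and it was the 1 guidance gene called in each. Leaving out 1 mouse gave 0 to 2 called guidance genes. Those called besides Ephb2 were Ephb1 (-0.22, without m671), Epha10 (-0.17, without m661), Epha8 (0.35 without m658 and 0.42 without m677), Efna2 (0.36, without m677), Efna5 (-0.26, without m668) and Sema3f (0.27, without m665). The median log2 fold change of the guidance genes was -0.03 to -0.01 without 1 mouse. The count of called partners was 4, rose to 7 with no filter beyond 1 count, and was 2 to 6 without 1 mouse. The cause was not tested. Fold changes of genes near 0 changed sign with the mouse left out, with log2 ranges of -0.075 to 0.040 for Efnb3, -0.14 to 0.025 for Plxnd1, -0.013 to 0.076 for Sema3e, -0.14 to 0.018 for Sema7a and -0.15 to 0.014 for Ephb6.

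Correlations of pairs were unstable. Without the 2 mice farthest from the median of the ligand, r was 0.0025 for Sema3f and Nrp2, -0.072 for Sema6d and Plxna1, 0.21 for Sema7a and Plxnc1, 0.21 for Efna5 and Epha5, 0.083 for Efnb3 and Epha4, and 0.027 for Efnb1 and Ephb2, each of the other sign than with all mice. Leaving out 1 mouse gave r of -0.29 to 0.45 for Sema6d and Plxna1, -0.27 to 0.055 for Sema3f and Nrp2, -0.59 to 0.060 for Efnb3 and Epha4, and -0.088 to 0.058 for Efnb2 and Ephb4. Centring within the sets of higher and lower microglial sum, an alternative chosen after seeing the data, turned the sign for Sema3f and Nrp2 (0.015), Efna3 and Epha4 (-0.53) and Efnb2 and Ephb4 (0.47). No pair had an adjusted p under 0.05 with all mice or without any 1 mouse, and the smallest without 2 mice was 0.05 (Efna3 and Epha4, r = 0.89). No paired analysis was possible because every mouse carries its own number and neither litters nor pairs are named.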
